A study of Mus musculus with 2 samples.

Results

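The genes examined are 10 markers of the macrophages that reside in the liver, known as Kupffer cells: the surface receptors Clec4f, Vsig4, Timd4, Marco, Cd163 and Adgre1, the secreted protein Cd5l, and the 3 chains of complement C1q, C1qa, C1qb and C1qc. They were chosen by symbol, as probe sets that name exactly 1 gene in the platform annotation, a rule that uses no measured value. The symbols themselves were listed with earlier results of these data known. All 10 were found, each with 1 probe set, among 19938 genes named in this way. Expression was measured in hepatocellular carcinoma tissue of mice given DEN (diethylnitrosamine, a chemical that is activated in hepatocytes and causes liver tumours). The labels give 1 HLF-deficient and 1 WT tumour sample, so both groups share the carcinogen and differ by the label in hepatic leukemia factor (HLF), which belongs to the PAR bZIP family of transcription factors. The deleted allele, whether the loss was confined to one cell type, strain, age, time after DEN and any pooling of animals are not given in the sources used here.

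Kupffer cells sit in the liver sinusoids and take up bacteria, ageing red cells and cell debris from portal blood. Their identity depends on signals from neighbouring endothelial, stellate and parenchymal cells and on the transcription factors LXR-alpha (Nr1h3), SPIC and ID3 in mice. When resident cells are lost, monocytes from the blood can enter and take on part of the same programme over time; Timd4 is acquired late and marks mostly cells of embryonic origin in mice. Clec4f is restricted to Kupffer cells in mice, whereas Adgre1 and C1q are also made by other tissue macrophages.

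Levels are given as log2 RMA expression, and each difference is HLF-deficient minus WT, so that a difference of 1 is 2-fold. Each genotype had 1 array, so no difference could be held against the variation from tumour to tumour. The targeted gene Hlf had a level of 3.79 in the HLF-deficient tumour and 5.13 in the WT tumour, which goes with the labels; whether its probe set reads the deleted exons is unknown here, and a probe set outside them would check nothing. A floor of expression at 2.96 was taken from chemoreceptor genes, and 14649 genes at or above it on at least 1 array were compared. Their median difference was 0.07, and the middle 50% lay between -0.17 and 0.29. The difference also moved with level, with a median of -0.20 in the dimmest sixth of genes and 0.24 in the second brightest. As a guide to technical spread, the 2 brightest probe sets of each of 719 genes were compared, which gave an SD of 0.23 for 1 probe set and says nothing of the variation between mice.

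All 10 genes were at or above the floor on both arrays, Cd163 only barely, so the markers that give the set its name had signal in both tumours. None of the 10 differed by 2-fold, in a comparison where 1.49% of all compared genes were higher and 0.362% were lower by that rule. The differences ran from -0.37 for Clec4f to 0.57 for Adgre1, with a median of 0.19 against 0.07 over all compared genes. That second median is not matched for level. Among compared genes within 0.5 of the mean level of a member, the median ran from -0.20 for Cd163 to 0.24 for Vsig4 and C1qa. Values below 0 were found for 3 genes, Clec4f, Vsig4 and Cd5l, and 7 had values above 0, where 41.7% of all compared genes were below and 58.0% above. The lowest values were those of Clec4f and Vsig4 and the highest those of Adgre1, C1qc and C1qb. The middle range of all compared genes, -0.17 to 0.29, held 5 of the 10, with 3 above it and 2 below. Against the middle range of genes of their own level, 4 were above and 3 below. Whether the set was more spread than other sets of 10 genes was not tested. In bulk tumour RNA, fewer cells of a type and less RNA per cell cannot be told apart.

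**Figure D1:**
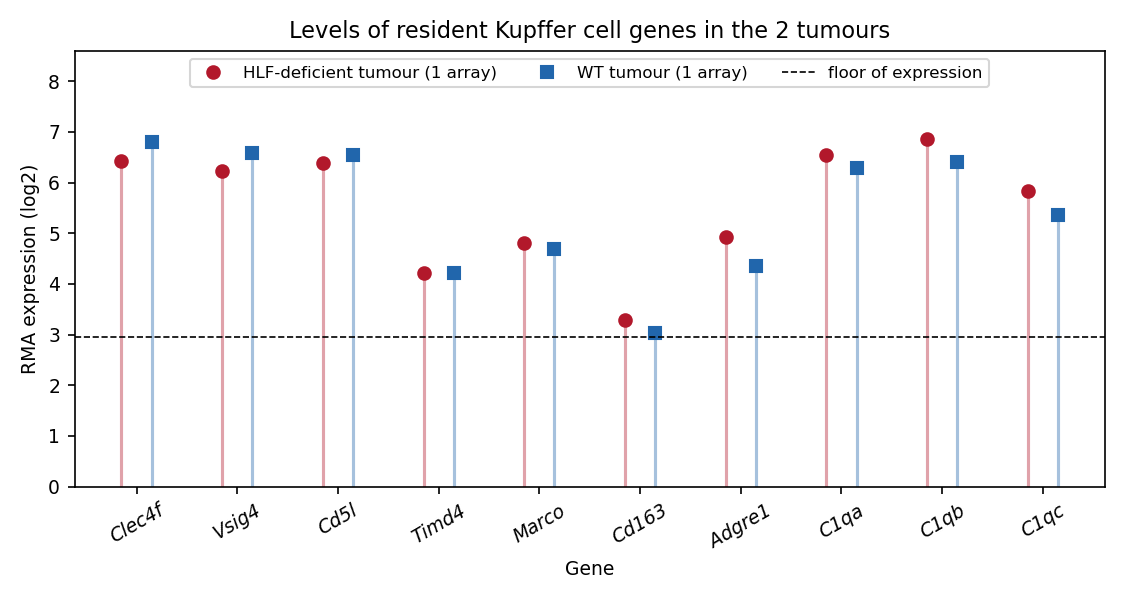
RMA expression (log2) of the 10 resident Kupffer cell genes in the HLF-deficient tumour (red circles, left of each pair) and the WT tumour (blue squares), 1 array each, with the floor of expression at 2.96 as a dashed line. Clec4f, Vsig4 and Cd5l lie lower and Adgre1 and the 3 C1q chains higher in the HLF-deficient tumour, while Timd4 is level and Cd163 sits just above the floor.

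Clec4f, a C-type lectin receptor for galactose-bearing glycans, had a log2 level of 6.43 in the HLF-deficient tumour and 6.80 in the WT tumour. The HLF-deficient tumour was the lower, by 1.29-fold, with a difference of -0.37. Vsig4, the complement receptor of the immunoglobulin family that binds C3 fragments on opsonised particles, had a level of 6.22 in the HLF-deficient tumour and 6.58 in the WT tumour. It was lower by 1.28-fold, a difference of -0.36 and so almost the same as that of Clec4f. Cd5l, a secreted scavenger receptor cysteine-rich protein that limits macrophage apoptosis, had a level of 6.39 in the HLF-deficient tumour and 6.54 in the WT tumour. Its difference of -0.15 was in the same direction and smaller than the technical SD of 0.23. Genes of similar level mostly lay on the other side: for the 2023 compared genes within 0.5 of the mean level of Clec4f the middle 50% ran from 0.07 to 0.39, and Clec4f, Vsig4 and Cd5l were each below the corresponding range of their own level.

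Timd4, a receptor for phosphatidylserine on dying cells, had a level of 4.22 in the HLF-deficient tumour and 4.21 in the WT tumour. With a difference of 0.0064 it was level between the tumours. Marco, a class A scavenger receptor that binds bacteria and particles, had a level of 4.81 in the HLF-deficient tumour and 4.70 in the WT tumour, a difference of 0.12 that was also within the technical SD. Both lay inside the middle 50% of genes of their level.

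Cd163, the scavenger receptor for haemoglobin bound to haptoglobin, had a level of 3.29 in the HLF-deficient tumour and 3.02 in the WT tumour. The WT value exceeded the floor by only 0.06 and the HLF-deficient value by 0.33, so the difference of 0.26 rests on signal near background. With a floor at the 99th percentile of the chemoreceptor genes, 3.78, Cd163 was not above it on either array and 9 of the 10 genes stayed in the comparison.

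Adgre1, the adhesion receptor detected by the F4/80 antibody and present on most mouse tissue macrophages, had the largest difference of the set. Its level was 4.92 in the HLF-deficient tumour and 4.35 in the WT tumour. This was 1.49-fold higher, a difference of 0.57, just under 1.5-fold, a rule by which 6.35% of all compared genes were higher and 3.13% lower. None of the 10 genes passed 1.5-fold in the values as deposited. The middle 50% of genes of similar level ran from -0.18 to 0.29, and Adgre1 lay above it.

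C1q is the recognition molecule of the classical complement pathway. Each molecule is assembled from the A, B and C chains together, and in the liver macrophages are a main source. C1qa had a level of 6.54 in the HLF-deficient tumour and 6.29 in the WT tumour. C1qb had a level of 6.85 in the HLF-deficient tumour and 6.40 in the WT tumour. C1qc had a level of 5.83 in the HLF-deficient tumour and 5.35 in the WT tumour. All 3 chains were higher in the HLF-deficient tumour, by 1.19-fold, 1.37-fold and 1.39-fold for C1qa, C1qb and C1qc, with differences of 0.26, 0.45 and 0.48. The differences of C1qb and C1qc were 0.02 apart and those of C1qc and C1qa 0.22 apart. The technical SD of 0.23 is for 1 probe set, and a gap between 2 probe sets has a wider technical spread. C1qb and C1qc lay above the middle 50% of genes of their level, while C1qa was inside it, near the local median of 0.24.

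Within the set the C1q chains therefore moved away from Clec4f. The difference of C1qb exceeded that of Clec4f by 0.82 on the log2 scale, that of C1qc by 0.84 and that of C1qa by 0.62. The difference of Adgre1 exceeded that of Clec4f by 0.94, which is the full range of the set. Such gaps within the same array pair are not altered by a constant shift between the arrays. How often gaps of this size arise between other genes was not tested. The 3 C1q chains had a median difference of 0.45, and the 7 other genes one of 0.0064. Of the 7, 4 were above 0 and 3 below, where 58.0% of all compared genes were above and 41.7% below.

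**Figure D2:**
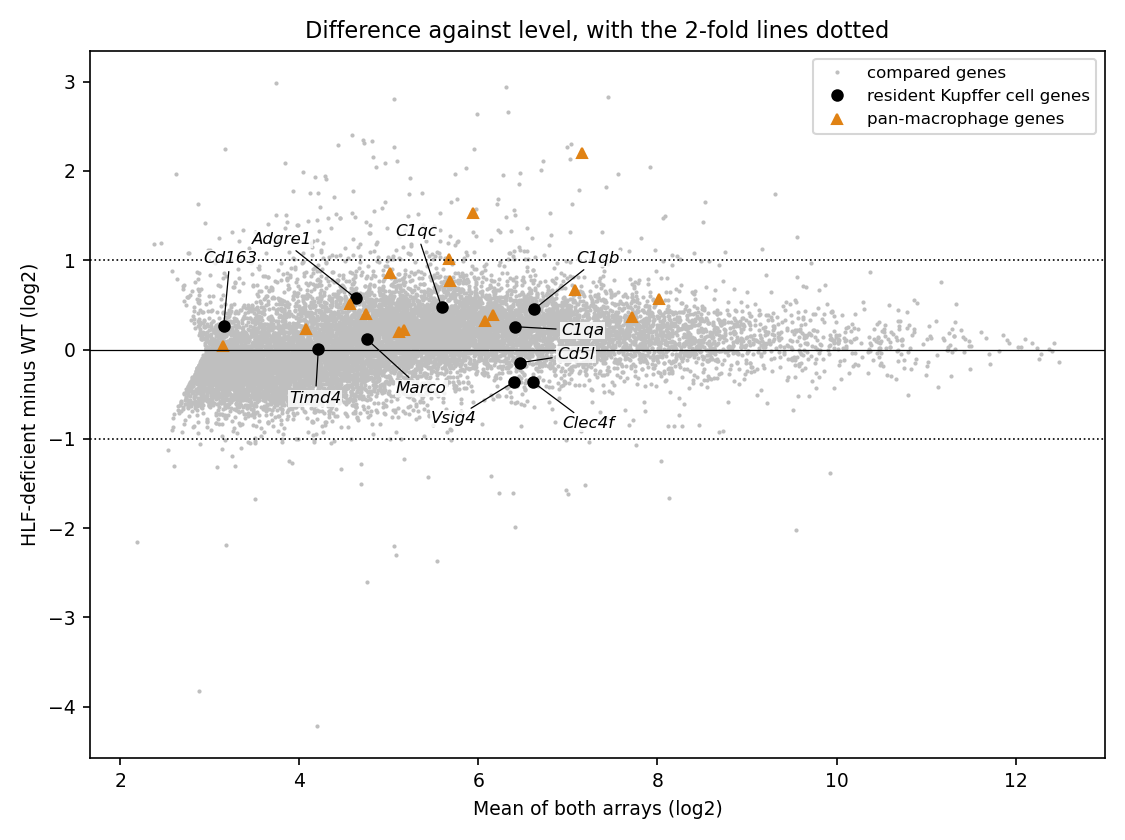
Difference (HLF-deficient minus WT, log2) against the mean of both arrays (log2) for 14649 compared genes (grey), the 10 resident Kupffer cell genes (black, named) and 16 pan-macrophage genes (orange triangles); dotted lines mark 2-fold. The named genes lie between -0.37 and 0.57, with Clec4f, Vsig4 and Cd5l under the bulk of genes of their level, and all 16 pan-macrophage genes lie above 0.

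The signs of all 10 differences were the same under 4 scalings of the arrays: as deposited, centred on the array medians, quantile normalized, and with a loess trend on level removed. Centring moved the median of all compared genes to 0.20, against 0.07 as deposited. Relative to that median, the difference of Clec4f ran from -0.59 to -0.44 over the 4 scalings, that of Vsig4 from -0.58 to -0.43 and that of Cd5l from -0.37 to -0.22. On the same footing Adgre1 ran from 0.50 to 0.54, C1qb from 0.24 to 0.38, C1qc from 0.29 to 0.40 and C1qa from 0.04 to 0.18. Marco ran from 0.04 to 0.06. Cd163 was at 0.19 as deposited and with the arrays centred, while after quantile normalization and with the loess trend removed its WT level was below the floor, so its differences there are not exact. Timd4 was the exception, from -0.07 to 0.04, and so had no settled side. With the arrays centred, Adgre1 at 0.70 and C1qc at 0.60 passed 1.5-fold, where centring added 0.12 to the difference of every gene and 11.4% of all compared genes were higher by that rule; under the other 3 scalings none of the 10 did.

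**Figure D3:**
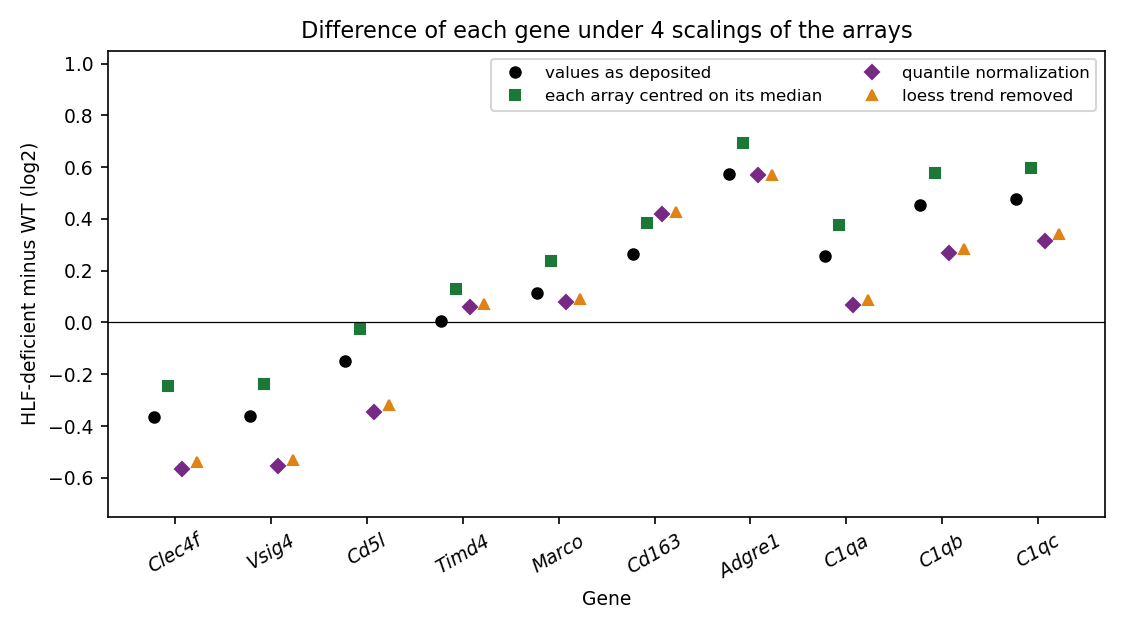
Difference (HLF-deficient minus WT, log2) of the 10 resident Kupffer cell genes under 4 scalings of the arrays, 1 point per gene and scaling. Clec4f, Vsig4 and Cd5l are below 0 and the other genes above 0 under each scaling, with Timd4 closest to 0 as deposited.

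Promoter windows are shown for the pair with the lowest differences, Clec4f and Vsig4, and for the adjacent pair C1qb and C1qc, to let the sequences beside the opposite shifts be read. RefSeq windows of assembly GRCm38.p6, 250 bases before to 50 after the start of each gene, were available for 8 of the 10 genes; C1qa and Adgre1 had none. C1qb, C1qc and C1qa follow each other directly in the order of protein-coding genes. Letters were searched on both strands for a PU.1 box (GAGGAA, PU.1 being the ETS factor of myeloid cells), a nuclear receptor half-site (AGGTCA, of the kind used by LXR) and a PAR bZIP site (TTANGTAA, the kind bound by HLF). Capitals mark every match of these motifs, and no matches overlapped. The windows are chr6:83656067-83656366, chrX:96293389-96293688, chr4:136886151-136886450 and chr4:136892865-136893164, all from the minus strand and written 5′ to 3′.
Clec4f: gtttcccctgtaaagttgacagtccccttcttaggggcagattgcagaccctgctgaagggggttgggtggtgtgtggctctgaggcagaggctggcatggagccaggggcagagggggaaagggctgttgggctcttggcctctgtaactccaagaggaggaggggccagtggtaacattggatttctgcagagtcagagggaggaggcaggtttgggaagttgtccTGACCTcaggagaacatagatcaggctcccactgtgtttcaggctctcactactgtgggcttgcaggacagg
Vsig4: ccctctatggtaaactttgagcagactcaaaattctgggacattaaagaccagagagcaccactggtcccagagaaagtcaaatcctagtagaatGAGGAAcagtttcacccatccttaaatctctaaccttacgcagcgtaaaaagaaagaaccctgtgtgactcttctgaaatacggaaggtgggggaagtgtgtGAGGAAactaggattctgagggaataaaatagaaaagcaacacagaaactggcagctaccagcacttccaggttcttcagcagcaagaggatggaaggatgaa
C1qb: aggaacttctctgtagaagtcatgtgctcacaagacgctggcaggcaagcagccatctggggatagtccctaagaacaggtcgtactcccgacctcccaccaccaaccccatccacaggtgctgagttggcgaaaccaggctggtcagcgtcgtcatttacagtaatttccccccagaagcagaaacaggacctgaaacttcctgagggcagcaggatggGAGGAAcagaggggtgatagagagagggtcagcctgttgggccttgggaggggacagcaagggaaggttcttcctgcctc
C1qc: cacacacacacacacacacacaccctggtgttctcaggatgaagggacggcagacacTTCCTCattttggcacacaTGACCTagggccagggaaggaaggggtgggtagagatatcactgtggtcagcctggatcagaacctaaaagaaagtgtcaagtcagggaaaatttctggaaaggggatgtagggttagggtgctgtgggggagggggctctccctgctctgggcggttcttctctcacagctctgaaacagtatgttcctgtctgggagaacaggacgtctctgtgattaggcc
The PU.1 box letters occurred in 5 of the 8 windows, Vsig4, C1qb, C1qc, Cd5l and Marco, against 28.3% of all 32851 promoter windows. The nuclear receptor half-site occurred in 3 of 8, against 16.3%. The PAR bZIP letters occurred in 0 of 8, against 2.32% of all windows. Vsig4, with a difference below 0, and the C1q pair, with differences above 0, all had the PU.1 box letters. Any link between these letters and the differences was not tested. These matches describe the letters of the windows and are no evidence of binding.

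Other genes of Kupffer cells had small differences on both sides of 0. Of 19 listed, 18 were compared and none passed 2-fold, with 12 values above and 6 below 0, where 58.0% of all compared genes were above and 41.7% below, and with a median of 0.05, against 0.07 over all compared genes. C6, a terminal complement component also made by hepatocytes, and Vcam1, an adhesion molecule, had the highest differences, 0.69 and 0.41. Hpgd, which degrades prostaglandins, and Clec1b, a lectin receptor, had the lowest, -0.41 and -0.34. Slc40a1, the iron exporter ferroportin, differed by 0.30.

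The transcription factors of the lineage had values on both sides of 0. The median of the 15 compared was 0.18, and none passed 2-fold. Of these, 9 were above and 6 below 0, where 58.0% of all compared genes were above and 41.7% below. By 1.5-fold 4 were higher and none was lower, against 6.35% and 3.13% of all compared genes. Spic, a PU.1-related factor of Kupffer cells and splenic red pulp macrophages, had a level of 4.58 in the HLF-deficient tumour and 3.86 in the WT tumour. That difference of 0.73 was the highest of the list, followed by Cebpb at 0.69 and Spi1, which encodes PU.1, at 0.64. Nr1h3, Id3 and Maf were nearly level at 0.05, -0.05 and -0.0040, and Irf8 was at 0.18. Smad4 and Rbpj, which carry the TGF-beta family and Notch signals of the Kupffer cell niche, were at 0.45 and 0.56. Id1 and Runx3 were lowest at -0.28 and -0.24. In bulk tumour RNA none of these values can be assigned to Kupffer cells alone.

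Among 17 genes of niche signals and their receptors the median was 0.32, against 0.07 over all compared genes. It was 0.16 both after quantile normalization and with the loess trend removed, where the medians of all compared genes were 0.02 and 0.04. By 2-fold 1 of them was higher and none was lower, against 1.49% and 0.362% of all compared genes. That gene was Dll4, an endothelial Notch ligand, with a level of 5.45 in the HLF-deficient tumour and 4.27 in the WT tumour, or 2.27-fold. Bmpr2, a receptor of the BMP family, was next at 0.60. The ligands of the macrophage growth factor receptor were nearly level, Csf1 at -0.04 and Il34 at -0.10, and the receptor Csf1r itself was at 0.32. Gdf2, which encodes BMP9 and is made by stellate cells, was lowest at -0.55.

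Genes shared by most macrophages had positive differences throughout. All 16 pan-macrophage genes had positive differences, 3 of them beyond 2-fold, and their median was 0.45. Over all compared genes 58.0% were above 0, 1.49% were higher by 2-fold and the median was 0.07. Csf1r, Fcer1g, Tyrobp and Mertk lay inside the middle range of genes of their level, as used for the resident set. The other genes of the list lay above that range. Cybb, the catalytic subunit of the phagocyte NADPH oxidase, had a level of 8.26 in the HLF-deficient tumour and 6.06 in the WT tumour, 4.61-fold higher. Cd68, a lysosomal glycoprotein of macrophages, had a level of 6.71 in the HLF-deficient tumour and 5.18 in the WT tumour, 2.88-fold higher. Cd53, a leukocyte tetraspanin, was 2.02-fold higher as deposited, but its difference was 0.87 after quantile normalization and 0.88 with the loess trend removed. Lyz2, the macrophage lysozyme, was at 0.57, and the lowest values were 0.04 for Aif1 and 0.20 for Mertk. The summed linear level of the 16 genes, which weights them by brightness, was 1640 in the HLF-deficient tumour and 964 in the WT tumour. Cybb, with its levels of 8.26 and 6.06, weighs more on the first sum than on the second. The difference between this list and the resident set was not tested, since 1 array per genotype allows no test.

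Of 19 listed genes of recruited monocytes and macrophages, 15 were compared, with 14 values above 0, 1 below and a median of 0.44. Over all compared genes 58.0% were above 0 and 41.7% below. Cd14, which presents endotoxin to TLR4, was higher by 3.62-fold, and Lgals3, the lectin galectin-3, by 2.57-fold. Gpnmb, a glycoprotein of lipid-laden macrophages, was below the floor in the WT tumour and at least 1.65-fold higher, so 2 of the 15 were shown to be past 2-fold. As deposited, 1.49% of all compared genes were higher by 2-fold. S100a4 and Itgax had the lowest values, -0.32 and 0.04, and the monocyte markers Ccr2 and Chil3 were below the floor on both arrays. The summed linear level of the 17 genes with a probe set was 2740 in the HLF-deficient tumour and 2176 in the WT tumour, of which Fn1, the fibronectin gene that hepatocytes also express, made up 73.0% and 80.0%. Without Fn1 the sum was 740 in the HLF-deficient tumour and 435 in the WT tumour. The part of these genes' cells in the values of Adgre1 and C1q, which such cells also express, was not tested.

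**Figure D4:**
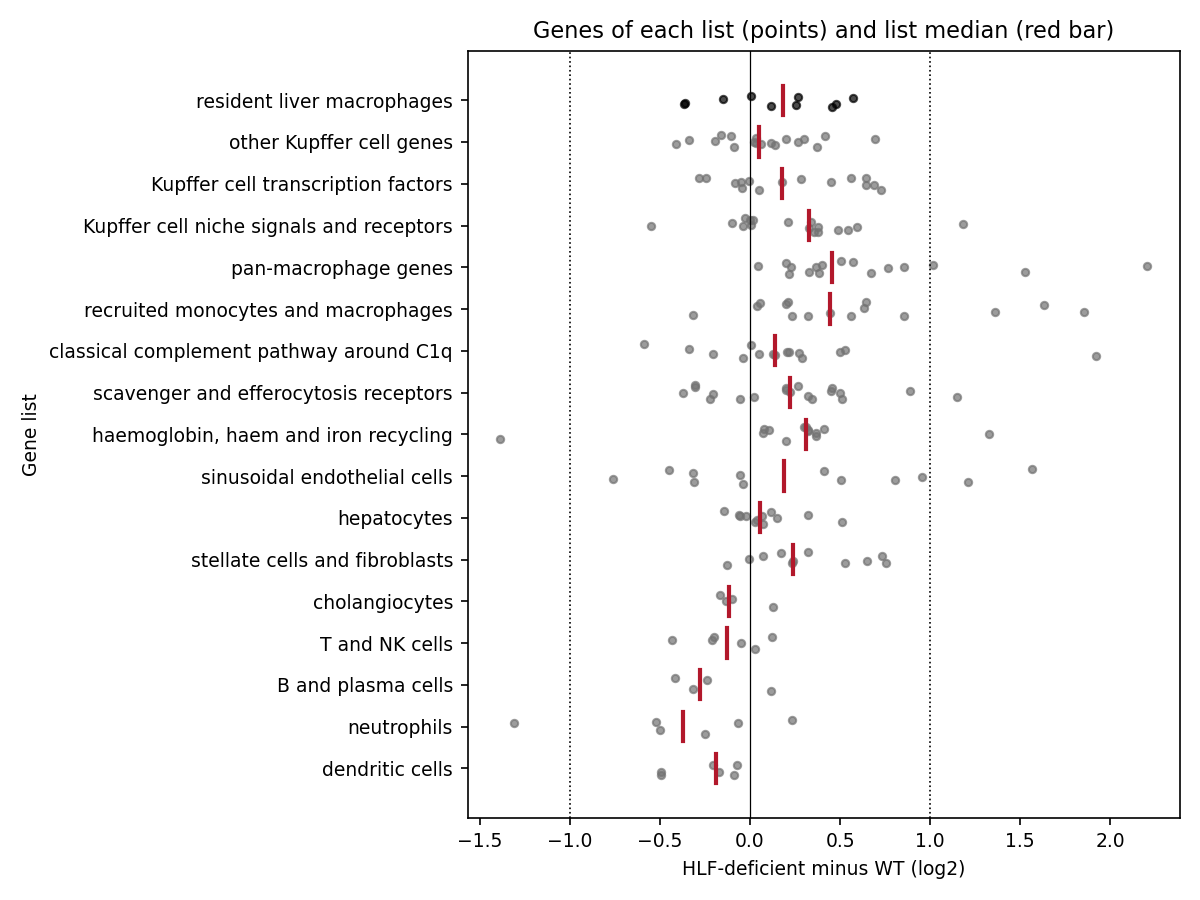
Difference (HLF-deficient minus WT, log2) of each compared gene (points) in the resident Kupffer cell set (black, top) and 16 other lists (grey), with the list median as a red bar and 2-fold as dotted lines. The resident set has a median of 0.19 with points on both sides of 0, and the pan-macrophage and recruited lists have medians of 0.45 and 0.44.

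The molecules that act with C1q were set beside its chains. C1r and C1s are the proteases that C1q carries; C1ra, C1s1 and C1s2 differed by 0.21, 0.05 and -0.04. C1ra and C1s1 have close copies in mice, which their probe sets may not tell apart. Serping1, the inhibitor of these proteases, was at 0.50 and C4b, the complement component cleaved by C1s, at 0.53. The median over 15 complement genes compared was 0.14. By 2-fold 1 of these genes was higher and none was lower, against 1.49% and 0.362% of all compared genes. The gene was Cd93, a glycoprotein of endothelial and myeloid cells once described as a C1q receptor, with a level of 6.20 in the HLF-deficient tumour and 4.28 in the WT tumour. Mbl2 and Masp1 of the lectin pathway were lowest, at -0.59 and -0.34.

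Receptors with functions near those of Marco, Timd4 and Cd163 had a median of 0.22 over 19 compared genes. Of these, 13 were above 0, where 58.0% of all compared genes were. Cd36, a scavenger receptor for oxidised lipids and fatty acids, was 2.22-fold higher as deposited, and did not pass that rule with the arrays quantile normalized or the loess trend removed. Itgav, an integrin subunit that binds bridging proteins on dying cells, was at 0.89. Havcr1, a relative of Timd4 and its neighbour in the genome, was at -0.31 and Megf10 had the lowest measured value, -0.37, with its HLF-deficient level below the floor. In the pathway downstream of Cd163, the haem oxygenase Hmox1 was 2.51-fold higher in the HLF-deficient tumour, with levels of 7.03 there and 5.70 in the WT tumour. Hp, the haptoglobin that Cd163 takes up with haemoglobin, was nearly level at 0.11. Of the 13 genes of this group, 12 had positive values, against 58.0% of all compared genes, and the median was 0.31. Hamp, the iron hormone hepcidin, was the 1 below 0, 2.62-fold lower. Tfrc, the transferrin receptor, was at 0.41 and Trf, transferrin, at 0.07.

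Markers of other cells in the tissue give the setting. Hepatocyte genes had a median of 0.05 over 12 genes, from -0.15 for Alb to 0.51 for Cyp2e1. Their summed linear level was 43039 in the HLF-deficient tumour and 41769 in the WT tumour. Their mean log2 levels there were 11.61 and 11.53, where the highest probe set values were 12.74 and 12.71. Whether signal was saturated at such levels was not tested, so the near-equal values do not show equal hepatocyte content. Sinusoidal endothelial genes, whose cells border Kupffer cells, had 6 values above and 6 below 0, where 58.0% of all compared genes were above. Their median of 0.19 turned to -0.0092 after quantile normalization. Flt4, a receptor for VEGF-C, and Lyve1, a hyaluronan receptor, were 2.96-fold and 2.31-fold higher, and Clec4g, a lectin of sinusoidal cells, and Fcgr2b, an inhibitory Fc receptor, were at -0.76 and -0.45. Stellate cell and fibroblast genes had a median of 0.24 over 11 genes, which was 0.12 after quantile normalization. B and plasma cell, neutrophil and dendritic cell lists had medians of -0.28, -0.37 and -0.19, over 4 to 6 compared genes each, and other markers of these lists were below the floor on both arrays. With the arrays quantile normalized, the B and plasma cell median was -0.17, the neutrophil median -0.24 and the dendritic cell median -0.07, and 2 of the 6 dendritic cell genes were above 0, against 0 of 6 as deposited. Dim genes were mostly below 0 as deposited, as the median of -0.20 in the dimmest sixth shows. The cholangiocyte median was -0.12 and that of T and NK cells -0.13, and both were above 0 after quantile normalization, at 0.0018 and 0.03. The part of any of these cells in the values of the resident set was not tested.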

How the data were processed

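Values were measured on 1 array per genotype. RNA was isolated with Trizol and labelled with an Affymetrix whole-transcript kit, per the labels' protocols; the deposited values are log2 expression made by the authors with RMA in Affymetrix Expression Console, per the submitters' processing notes, with no version there, and the log2 scale was read from the values. Of 35556 probe sets, 21789 name exactly 1 gene in the platform annotation, 1621 several and 12146 none, and the first kind covered 19938 genes; 21698 of its probe sets were found by gene identifier in the RefSeq table of assembly GRCm38.p6. The brightest probe set stood for a gene. A floor was set at the 95th percentile of 1245 probe sets of olfactory, vomeronasal and bitter taste receptor genes, and genes at or above it on either array were compared. With 1 array per genotype there is no test, SD or interval between tumours, and precision is limited by that number. Signed differences of at least 1 on the log2 scale were counted. The members and lists were chosen with earlier results of these data known. Text names the 10 members, Hlf, genes of a list past 2-fold, its 2 highest and 2 lowest, and genes fixed for their role beside a member. Alternatives were array centring, quantile normalization, a loess trend (span 0.4), probe set means, floors at the 90th and 99th percentile or none, 1.5-fold and, chosen after seeing the data, levels below the floor set to the floor. The procedure was tested on simulated data. Python 3.11.15, pandas 2.3.3 and statsmodels 0.14.6 were used.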

Additional observations from a re-analysis of the deposited data

How the results depend on the processing

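The 10 resident Kupffer cell genes had no member past 2-fold under any of the 8 alternatives that keep this rule, and none passed 1.5-fold as deposited. Their median difference was 0.19 as deposited, 0.31 with the arrays centred, 0.07 after quantile normalization, 0.09 with the loess trend removed and 0.12 with the floor at the 99th percentile, where Cd163 dropped out. By the 1.5-fold rule 930 genes were higher and 458 lower, against 219 and 53 by 2-fold, and centring left 32 lower by 2-fold. By 1.5-fold 6 pan-macrophage and 6 recruited macrophage genes were higher, against 3 and 3 by 2-fold. Over all compared genes these shares were 6.35% and 1.49%. In a setting chosen after seeing the data, with levels below the floor set to the floor, the recruited counts were 5 by 1.5-fold, as Ms4a7 dropped out, and 2 by 2-fold, as Gpnmb did, and over all genes 205 were higher and 42 lower by 2-fold. Across lists, medians near 0 turned sign with the scaling: sinusoidal endothelial genes to -0.0092 and T and NK cell genes to 0.03 after quantile normalization, and cholangiocyte genes to 0.0065 with the arrays centred. Some medians kept their sign but were smaller after quantile normalization. That of the complement genes went from 0.14 to 0.02, and that of the receptors near Marco, Timd4 and Cd163 in function from 0.22 to 0.11. The recruited macrophage median went the other way, from 0.44 to 0.51. No paired analysis was possible because each genotype had 1 array, and for the same reason no array could be left out. RMA compresses differences near background, which bears most on Cd163.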
